A study of Mus musculus with 34 samples.

Results

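The levels of 10 genes of apoptosis and inflammasome signalling were followed in regenerating mouse livers. Members were the rows of the gene table, which holds 78298 genes, with the symbols *Bcl2*, *Bcl2l1*, *Mcl1*, *Bcl2l11* and *Bid* of the *Bcl2* family and *Casp8*, *Casp1*, *Casp4*, *Pycard* and *Nlrp3* of the caspases and the inflammasome. All 10 passed the filter on low counts that left 14980 genes tested. Control livers (WT) came from mice with loxP-flanked *Sirt1* alleles and no Cre, and SIRT1intKO livers from mice with the floxed alleles and Cre under the Villin promoter, which deletes *Sirt1* in the intestinal epithelium rather than in the liver. All mice were young adult males on a C57/Bl6 background, and whole liver was taken without surgery (0 hours) or at 6 or 24 hours after partial hepatectomy (PHx), the resection of most of the liver that starts regeneration. Stranded polyA RNA-seq covered 6 WT and 6 SIRT1intKO livers at 0 hours, 6 and 5 at 6 hours, and 4 and 7 at 24 hours. These groups follow the labels of the libraries. The figure legends of the paper state other numbers of WT livers at both times after PHx, and the reason is not known.

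*Bcl2* family proteins control the integrity of the outer mitochondrial membrane. *Bcl2*, *Bcl2l1* (BCL-XL) and *Mcl1* encode members that hold the pore-forming proteins BAX and BAK in check, whereas *Bcl2l11* (BIM) and *Bid* encode BH3-only proteins that oppose them, and caspase-8, downstream of death receptors, cleaves BID and so joins the receptor route to the mitochondrial route of apoptosis. Inflammasomes are a separate assembly, in which a sensor such as NLRP3 recruits caspase-1 through the adaptor ASC, encoded by *Pycard*, while caspase-11, encoded by *Casp4* in the mouse, senses cytosolic lipopolysaccharide. Hepatocytes are known to depend on BCL-XL and MCL1 for survival, and the NLRP3 inflammasome is best known from myeloid cells.

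At 24 hours after PHx, *Bcl2* was the 1 member that passed edgeR's test between genotypes (DESeq2 called *Bcl2* and *Bid*), with 2.70-fold more transcript in SIRT1intKO than in WT livers, a call that was lost without either of 2 WT livers and in 3 alternative fits. Within SIRT1intKO mice, *Bcl2*, *Bid*, *Casp1*, *Pycard* and *Nlrp3* were higher at 24 hours than at 6 hours, and the call of *Casp1* was lost in 8 of 12 fits that left out 1 library. *Casp1* had fallen at 6 hours in these mice, and at 24 hours it was not above 0 hours (log2 change −0.28, edgeR adjusted p = 0.472). *Casp8* rose at 6 hours and fell again by 24 hours in both genotypes, and *Bid* fell at 6 hours and rose by 24 hours in both, where the WT rise was lost without 1 WT liver and with only the groups compared in the fit. The rise of *Bcl2l1* and *Bcl2l11* in WT livers at 24 hours rested on 2 of the 4 livers.

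The start-site sequences of the 5 members that rose between 6 and 24 hours in SIRT1intKO livers with edgeR are shown. All 10 members matched RefSeq start-site windows on GRCm38.p6, which run from 250 bases before to 50 after the start, and 15 windows were read because *Bcl2l1*, *Bcl2l11*, *Casp4* and *Nlrp3* have several starts. Each sequence runs 5′ to 3′ on the strand of its gene, and capitals mark matches to the motifs searched. The window of *Bcl2* is chr1:106714241-106714540, minus strand, that of *Bid* chr6:120916775-120917074, minus strand, that of *Casp1* chr9:5298267-5298566, plus strand, that of *Pycard* chr7:127993818-127994117, minus strand and the first window of *Nlrp3* chr11:59542436-59542735, plus strand.
Bcl2: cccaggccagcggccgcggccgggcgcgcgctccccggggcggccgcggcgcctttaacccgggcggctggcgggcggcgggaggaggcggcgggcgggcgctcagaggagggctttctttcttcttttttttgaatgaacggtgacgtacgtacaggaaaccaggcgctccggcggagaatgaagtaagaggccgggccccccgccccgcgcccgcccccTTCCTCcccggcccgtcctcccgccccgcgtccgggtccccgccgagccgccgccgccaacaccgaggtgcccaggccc
Bid: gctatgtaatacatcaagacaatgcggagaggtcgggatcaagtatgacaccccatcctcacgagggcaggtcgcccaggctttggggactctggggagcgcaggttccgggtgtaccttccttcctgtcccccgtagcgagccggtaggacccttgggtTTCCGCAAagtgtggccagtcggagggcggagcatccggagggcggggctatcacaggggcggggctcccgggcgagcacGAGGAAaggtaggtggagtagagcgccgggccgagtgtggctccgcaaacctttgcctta
Casp1: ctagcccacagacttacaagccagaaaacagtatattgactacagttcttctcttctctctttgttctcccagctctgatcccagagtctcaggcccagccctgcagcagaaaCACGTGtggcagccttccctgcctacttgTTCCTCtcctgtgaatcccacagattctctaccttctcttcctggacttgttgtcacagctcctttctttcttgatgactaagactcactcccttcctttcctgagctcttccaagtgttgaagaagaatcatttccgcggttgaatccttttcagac
Pycard: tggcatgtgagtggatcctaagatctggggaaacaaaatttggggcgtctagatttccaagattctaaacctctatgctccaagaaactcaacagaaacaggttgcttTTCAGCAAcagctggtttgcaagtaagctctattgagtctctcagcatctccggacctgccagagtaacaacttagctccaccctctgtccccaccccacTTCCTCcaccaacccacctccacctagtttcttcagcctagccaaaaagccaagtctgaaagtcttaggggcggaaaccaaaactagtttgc
Nlrp3: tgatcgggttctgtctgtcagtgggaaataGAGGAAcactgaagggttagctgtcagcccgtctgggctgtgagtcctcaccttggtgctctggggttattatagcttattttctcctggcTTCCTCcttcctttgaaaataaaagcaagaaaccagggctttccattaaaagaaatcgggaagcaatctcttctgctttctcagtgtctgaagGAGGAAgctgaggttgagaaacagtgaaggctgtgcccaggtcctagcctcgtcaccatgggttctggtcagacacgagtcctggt

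GAGGAA, core letters of ETS factors such as PU.1, was found on one strand or the other in 5 of the 15 windows (33.3%), beside 28.3% of all 32851 RefSeq windows of this length, a share near the background. These were the 5 windows shown, and the windows of *Casp4*, which DESeq2 also called higher at 24 than at 6 hours in SIRT1intKO livers, held no match. The match lay 29 to 24 bases before the start in *Bcl2* (−29 to −24), at −10 to −5 in *Bid*, at −108 to −103 in *Casp1* and at −42 to −37 in *Pycard*. *Nlrp3* held 3 matches in its first window and none in its second. A match describes only the sequence. The C/EBP letters TTGCNNAA were found in *Bid* and *Pycard* (10.8% of all windows), and the E-box CACGTG in *Casp1* (7.15%). The NF-kB consensus was found in both overlapping windows of *Casp4*, in the second window of *Bcl2l1* and in the second window of *Nlrp3* (4.51%), and the FOXO letters TGTTTAC in the first window of *Bcl2l11* and in both windows of *Casp4* (3.65%). The AP-1 letters TGANTCA (7.81% of all windows), the STAT letters TTCNNNGAA (8.30%), the ISRE consensus (3.44%) and TATAAA (13.6%) were in none of the 15 windows. Both strands were searched, and matches of different motifs did not overlap in the printed windows.

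CpG dinucleotides numbered 44 in the window of *Bcl2*, 33 in that of *Mcl1*, 27 and 38 in those of *Bcl2l11* and 22 in that of *Bid*, whereas the windows of *Bcl2l1* held 1, 14 and 22. Every window of *Casp8*, *Casp1*, *Casp4*, *Pycard* and *Nlrp3* held 3 to 5. Among all windows, 43.6% held at most 5 and 26.5% held at least 20, so both kinds are common in the genome.

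Library totals ranged from 14892098 to 23480480 estimated counts, with a median of 16807329. Levels are given as CPM after TMM scaling, that is counts relative to the size of their library, and since these are not divided by transcript length, they are compared between livers and not between genes. The hepatocyte markers *Alb*, *Apoa1*, *Ttr*, *Cps1* and *Cyp2e1* summed to 27329 to 78556 CPM per liver, so the defining markers of hepatocytes were present in every library. Their sums had medians of 68499, 51448 and 30226 CPM at 0, 6 and 24 hours in WT and 70699, 55069.6 and 47968 CPM in SIRT1intKO livers, and at 24 hours 1 of the 5, *Alb*, passed between genotypes (log2 difference 0.85 ± 0.23, adjusted p = 0.0278), a call lost without WT replicates 1 and 2 (0.68, adjusted p = 0.113). The part of this shift in the changes of the members was not tested. Hepatic *Sirt1* had medians of 11.3 CPM in WT and 7.87 CPM in SIRT1intKO livers at 24 hours (log2 difference −0.65 ± 0.22 SE, edgeR adjusted p = 0.0726), and since the deletion is intestinal, this does not check the genotype. The WT livers at 24 hours formed 2 pairs, with r = 0.983 over all tested genes between replicates 3 and 4 and r = 0.953 between replicates 1 and 2, while the mean correlation of each replicate with its group was 0.913 to 0.933. Of the WT livers at 6 hours, replicate 6 had the lowest mean correlation with its group, at 0.958. Its 8 neutrophil markers summed to 59.6 CPM, where the next WT liver at 6 hours had 17.8 CPM. Its library name falls between those of SIRT1intKO replicates 6 and 7 at 24 hours, and whether its label is right was not tested. Leaving it out changed the call of no member. WT replicate 2 at 0 hours had the lowest mean correlation of the livers taken without surgery, at 0.965. Where leaving out one of these pairs or this liver changed the call of a member, the value without it is given. The 0-hour libraries carry names from another number series than those after PHx, so a difference between the series and an effect of PHx cannot be told apart, whereas 24 and 6 hours lie within one series. In whole tissue, fewer cells of a type and less RNA per cell cannot be told apart.

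Counts of members that passed edgeR's quasi-likelihood test (adjusted p under 0.05 over all genes tested) were read beside the share of all tested genes that passed. At 6 against 0 hours, 5 of 10 members passed in WT livers, where 37.4% of all genes did, and 5 of 10 in SIRT1intKO livers, where 38.4% did. At 24 against 0 hours, 2 of 10 passed in WT livers (34.1% of all genes) and 6 of 10 in SIRT1intKO livers (50.2%), and each of these was higher at 24 hours (19.5% and 26.2% of all genes were). At 24 against 6 hours, 4 of 10 passed in WT livers (16.5%) and 6 of 10 in SIRT1intKO livers (27.6%). With the threshold of the study, which adds a log2 fold change beyond 1, 2 and 3 members passed at 6 against 0 hours in WT and SIRT1intKO livers (15.6% and 16.6% of all genes), 2 and 4 at 24 against 0 hours (15.7% and 23%) and 1 and 4 at 24 against 6 hours (7.16% and 10.6%). The threshold was applied here to edgeR's log2 fold changes, whereas the paper shrank its own with DESeq2. Between genotypes 1 of 10 passed at 24 hours (5.81% of all genes), and 6 had an unadjusted p under 0.05 (23.4%). At 0 and at 6 hours 0 of 10 passed with edgeR between genotypes, as did 0% of all genes at both times, with 1 (*Casp4*) and 2 (*Mcl1* and *Pycard*) at an unadjusted p under 0.05 (1.07% and 6.52% of all genes) and 0 called by DESeq2. In SIRT1intKO livers the median log2 fold change of the members was 0.97 at 24 against 0 hours and 1.04 at 24 against 6 hours, beside medians of 0.04 and −0.01 over all genes tested. In WT livers it was −0.04 and 0.62, beside 0.02 and 0.01. Comparisons with the same reference group share its livers.

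**Figure D1:**
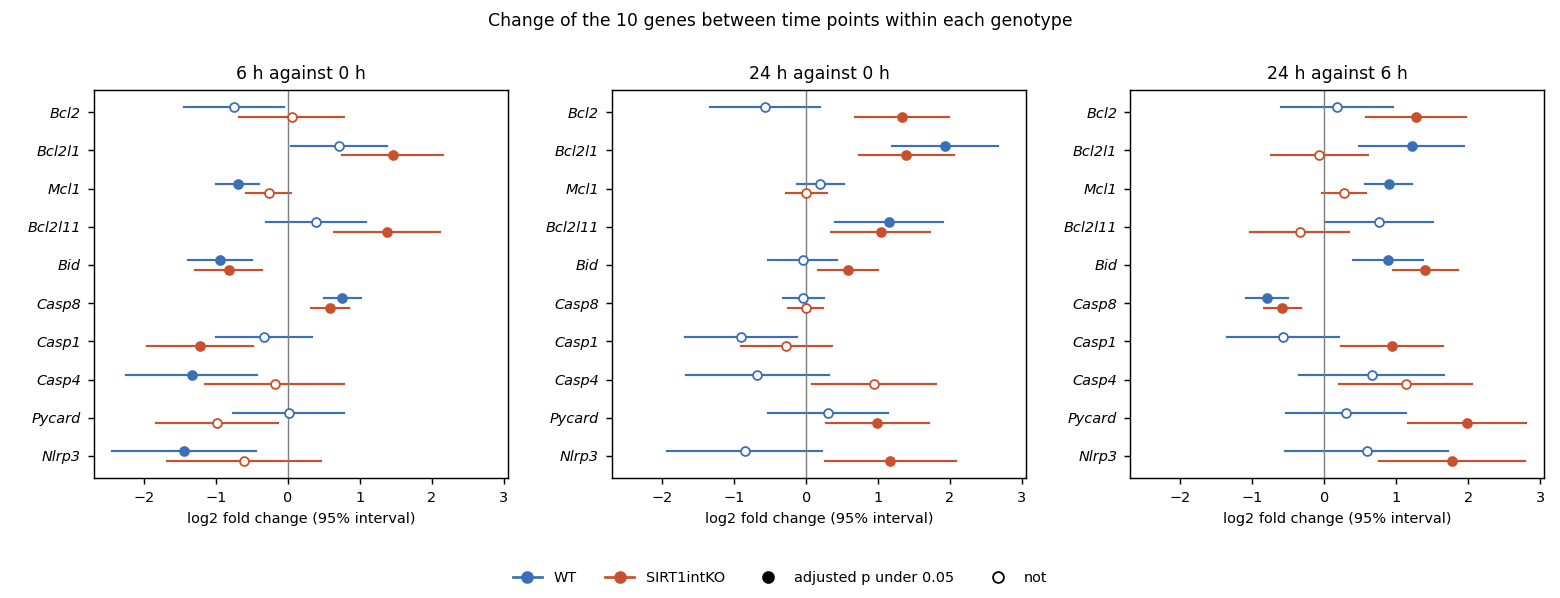
Log2 fold changes of the 10 members (points) with 95% intervals (bars) for 6 against 0 hours, 24 against 0 hours and 24 against 6 hours, in WT (blue) and SIRT1intKO (orange-red) livers. Filled points passed the edgeR test at an adjusted p under 0.05, and at 24 against 6 hours Casp8 lies below 0 and Bid above 0, filled in both genotypes.

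Of the 3 members that restrain mitochondrial permeabilization, *Bcl2* was the one that passed the test between genotypes. In WT livers *Bcl2* ranged from 0.898 to 1.85 CPM (median 1.29) at 0 hours and from 0.538 to 1.12 CPM (median 0.724) at 6 hours, and was 0.984, 0.457, 1.36 and 0.796 CPM in replicates 1 to 4 at 24 hours. In SIRT1intKO livers it ranged from 0.409 to 1.43 CPM (median 0.993) at 0 hours, was 0.705, 1.76, 1.32, 1.03 and 0.240 CPM at 6 hours, and ranged from 1.36 to 3.62 CPM (median 2.60) at 24 hours. The lowest SIRT1intKO liver at 24 hours thus met the highest WT liver at 1.36 CPM, and the other 6 were above it. The log2 difference between genotypes at 24 hours was 1.43 ± 0.37 (SE; 95% interval 0.68 to 2.18, edgeR adjusted p = 0.0223). Within SIRT1intKO mice the log2 rise was 1.33 ± 0.32 from 0 hours (adjusted p = 0.00102) and 1.27 ± 0.34 from 6 hours (adjusted p = 0.00606). In WT mice the log2 change of *Bcl2* from 0 hours was −0.75 ± 0.34 at 6 hours (adjusted p = 0.0816, and 0.0243 with only the groups compared) and −0.58 ± 0.38 at 24 hours (adjusted p = 0.242). These values rest on 4 to 95 counts per library. The call between genotypes was lost without WT replicate 2 (1.21, adjusted p = 0.0685) or WT replicate 4 (1.37, adjusted p = 0.0507), and without WT replicates 1 and 2 together (1.17, adjusted p = 0.0776), with SIRT1intKO higher in each of these fits. It was also lost with only the groups compared in the fit (adjusted p = 0.257), with the replicate number as a block (adjusted p = 0.0755) and with edgeR's glmTreat, which tests for more than a 1.2-fold change (adjusted p = 0.0604).

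*Bcl2l1* rose after PHx in SIRT1intKO livers, and in WT livers its level at 24 hours differed between the pairs. WT livers ranged from 24.8 to 61.7 CPM (median 38.7) at 0 hours and from 34.3 to 103 CPM (median 62.6) at 6 hours, and replicates 1 to 4 at 24 hours had 239.7, 260.0, 63.1 and 52.7 CPM. SIRT1intKO livers ranged from 29.6 to 42.2 CPM (median 33.7) at 0 hours, had 42.0, 129, 133, 102 and 61.3 CPM at 6 hours, and ranged from 54.9 to 119.7 CPM (median 95.9) at 24 hours. In SIRT1intKO mice the 24-hour livers did not overlap the 0-hour livers, as for 22% of all genes tested. The log2 rise in SIRT1intKO livers was 1.46 ± 0.34 at 6 hours (adjusted p = 0.00123) and 1.39 ± 0.32 at 24 hours (adjusted p = 0.000715), and the log2 difference of 24 from 6 hours was −0.07 (95% interval −0.74 to 0.60, adjusted p = 0.903). In WT livers the log2 change of *Bcl2l1* at 6 hours was 0.71 ± 0.33 (adjusted p = 0.0876), which passed with only the groups compared (adjusted p = 0.037) and without WT replicate 1 at 0 hours (0.87, adjusted p = 0.0491). In WT livers the log2 rise at 24 against 0 hours was 1.93 ± 0.36 (adjusted p = 0.000169) with all 4 livers, but 0.52, adjusted p = 0.459 without replicates 1 and 2. At 24 against 6 hours the WT value of 1.21 ± 0.36 (adjusted p = 0.019) turned to −0.19, adjusted p = 0.802 without those livers. That call was also lost without replicate 1 (adjusted p = 0.11) or 2 alone (adjusted p = 0.132), with only the groups compared (adjusted p = 0.157) and with the replicate block (adjusted p = 0.0553). The order of the genotypes at 24 hours depends on the WT pair, since replicates 1 and 2 lay above every SIRT1intKO liver and replicates 3 and 4 below at least 6 of the 7. The log2 difference between genotypes was −0.78 ± 0.35 and did not pass (adjusted p = 0.164), but passed without WT replicates 3 and 4 (−1.51, adjusted p = 0.00198), whereas without replicates 1 and 2 its sign turned (0.62, adjusted p = 0.249).

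*Mcl1*, which encodes a short-lived protector of hepatocyte mitochondria, dipped at 6 hours in WT livers. There it ranged from 94.9 to 151 CPM (median 100.3) at 0 hours and from 58.1 to 83.4 CPM (median 64.0) at 6 hours, and was 176, 127, 99.3 and 96.9 CPM at 24 hours. In SIRT1intKO livers *Mcl1* ranged from 83.0 to 114 CPM (median 107) at 0 hours, was 73.2, 90.5, 97.3, 81.4 and 76.7 CPM at 6 hours, and ranged from 80.9 to 141 CPM (median 101) at 24 hours. WT livers at 6 hours overlapped neither those at 0 hours nor those at 24 hours, as for 24.1% and 7.36% of all genes tested. The log2 change was −0.70 ± 0.15 at 6 hours (adjusted p = 0.000323) and 0.90 ± 0.16 from 6 to 24 hours (adjusted p = 0.000341) in WT livers. In SIRT1intKO livers the same log2 values were −0.27 ± 0.15 (adjusted p = 0.164) and 0.27 ± 0.15 (adjusted p = 0.166). Without WT replicate 2 at 0 hours, the liver at 151 CPM, the fall in WT livers was −0.58, adjusted p = 0.00177. Between genotypes at 24 hours the log2 difference of *Mcl1* was −0.30 ± 0.16 (adjusted p = 0.238). Without WT replicates 3 and 4 it was −0.61, adjusted p = 0.0142, and without replicates 1 and 2 it was 0.04, adjusted p = 0.887. The WT log2 change of *Mcl1* at 24 against 0 hours was 0.20 ± 0.16 (adjusted p = 0.358), and passed without replicates 3 and 4 (0.49, adjusted p = 0.0239).

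**Figure D2:**
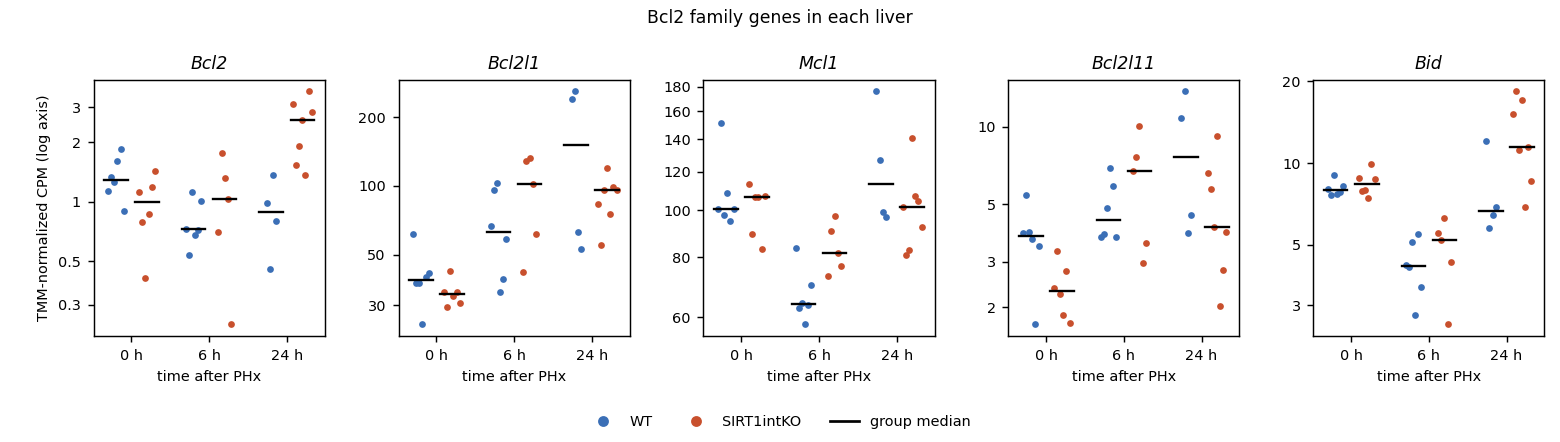
TMM-normalized CPM (log axis) of the 5 Bcl2 family members in each of 34 livers, by time after PHx (0, 6 and 24 hours). Each point is a liver, WT in blue and SIRT1intKO in orange-red, and black lines are group medians; Bcl2 at 24 hours lies at 1.36 to 3.62 CPM in SIRT1intKO and 0.457 to 1.36 CPM in WT livers, and the WT livers at 24 hours split into pairs for Bcl2l1 and Bcl2l11.

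The BH3-only genes followed different courses. *Bcl2l11* ranged in WT livers from 1.72 to 5.41 CPM (median 3.77) at 0 hours and from 3.72 to 6.93 CPM (median 4.34) at 6 hours, and was 10.8, 13.7, 3.87 and 4.53 CPM at 24 hours. In SIRT1intKO livers it ranged from 1.74 to 3.29 CPM (median 2.31) at 0 hours, was 6.73, 7.61, 10.1, 2.97 and 3.53 CPM at 6 hours, and ranged from 2.02 to 9.16 CPM (median 4.09) at 24 hours. The groups overlapped in every comparison of *Bcl2l11*, and the highest liver of all was WT replicate 2 at 24 hours. In SIRT1intKO mice the log2 rise was 1.38 ± 0.36 at 6 hours (adjusted p = 0.00323) and 1.04 ± 0.34 at 24 hours (adjusted p = 0.0118). The WT log2 change was 0.39 ± 0.34 at 6 hours (adjusted p = 0.39) and 1.15 ± 0.37 at 24 hours (adjusted p = 0.0159). The WT rise at 24 hours rested on replicates 1 and 2: without both the log2 change was 0.19, adjusted p = 0.868, and without replicate 1 or 2 alone it was 1.02, adjusted p = 0.0642 and 0.79, adjusted p = 0.149. The call of this WT rise was also lost with the replicate block (0.93, adjusted p = 0.0571). The log2 difference between genotypes at 24 hours was −0.75 ± 0.35 (adjusted p = 0.194). Without WT replicates 3 and 4 it was −1.36, adjusted p = 0.013, and without replicates 1 and 2 its sign turned (0.21, adjusted p = 0.77). The WT log2 change of *Bcl2l11* from 6 to 24 hours was 0.76 ± 0.37 (adjusted p = 0.159), and passed without replicates 3 and 4 (1.37, adjusted p = 0.00817).

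*Bid*, whose product is activated by caspase-8, fell and came back. WT livers ranged from 7.61 to 9.07 CPM (median 7.95) at 0 hours and from 2.76 to 5.49 CPM (median 4.18) at 6 hours, and had 12.1, 5.77, 6.44 and 6.92 CPM at 24 hours. SIRT1intKO livers ranged from 7.42 to 9.90 CPM (median 8.37) at 0 hours, had 5.52, 5.21, 6.29, 2.55 and 4.31 CPM at 6 hours, and ranged from 6.90 to 18.4 CPM (median 11.5) at 24 hours. In both genotypes each 6-hour liver lay below every liver at 0 and at 24 hours, as 26.2% and 8.81% of all genes did not overlap in the SIRT1intKO comparisons and 24.1% and 7.36% in the WT comparisons. At 6 against 0 hours the log2 change of *Bid* was −0.94 ± 0.22 in WT livers (adjusted p = 0.00101) and −0.83 ± 0.23 in SIRT1intKO livers (adjusted p = 0.00492). At 24 against 6 hours it was 0.89 ± 0.24 in WT livers (adjusted p = 0.0101) and 1.41 ± 0.22 in SIRT1intKO livers (adjusted p = 4.11e-05), and the WT call was lost without WT replicate 1 (0.62, adjusted p = 0.0958), without replicates 1 and 2 together (0.67, adjusted p = 0.127) and with only the groups compared (adjusted p = 0.0648). At 24 against 0 hours the log2 change was 0.58 ± 0.20 in SIRT1intKO livers (adjusted p = 0.0184) and −0.05 ± 0.24 in WT livers (adjusted p = 0.886), and the SIRT1intKO call was lost without replicate 2 (0.47, adjusted p = 0.0577) or replicate 4 (0.49, adjusted p = 0.0504) at 24 hours and with glmTreat (adjusted p = 0.0567). The log2 difference between genotypes at 24 hours, 0.70 ± 0.23, did not pass with edgeR (adjusted p = 0.0673) and passed with DESeq2 (adjusted p = 0.0372). It also passed without WT replicates 1 and 2 (0.92, adjusted p = 0.0273), and without replicates 3 and 4 it was 0.48, adjusted p = 0.275.

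*Casp8*, the initiator caspase of death receptors, rose at 6 hours and came back by 24 hours in both genotypes. WT livers ranged from 18.4 to 26 CPM (median 21.7) at 0 hours and from 29.3 to 47.7 CPM (median 35.5) at 6 hours, and had 18.9, 20.4, 23.51 and 22.6 CPM at 24 hours. In SIRT1intKO livers *Casp8* ranged from 20 to 27.3 CPM (median 24.5) at 0 hours, was 26.7, 40.6, 28.6, 49.0 and 35.8 CPM at 6 hours, and ranged from 20.5 to 27.7 CPM (median 24.0) at 24 hours. Every WT liver at 6 hours was above every WT liver at the other times, as 24.1% and 7.36% of all genes did not overlap against 0 and 24 hours, and 1 of the 5 SIRT1intKO livers at 6 hours overlapped the other times. The log2 rise at 6 hours was 0.76 ± 0.13 in WT livers (adjusted p = 1.93e-05) and 0.58 ± 0.13 in SIRT1intKO livers (adjusted p = 0.00078). From 6 to 24 hours the log2 change was −0.79 ± 0.14 (adjusted p = 0.00036) and −0.58 ± 0.13 (adjusted p = 0.000941). At 24 against 0 hours the 95% interval of the log2 change ran from −0.32 to 0.25 in WT and from −0.25 to 0.24 in SIRT1intKO livers. Between genotypes, the 95% interval of the log2 difference ran from −0.11 to 0.40 at 0 hours, from −0.30 to 0.23 at 6 hours and from −0.10 to 0.45 at 24 hours.

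The inflammasome members had few reads in whole liver, with 3 to 143 counts per library for *Casp1*, *Casp4*, *Pycard* and *Nlrp3*, and after PHx their group medians were highest in SIRT1intKO livers at 24 hours. *Pycard*, the adaptor, ranged in WT livers from 0.537 to 1.17 CPM (median 0.899) at 0 hours and from 0.419 to 1.56 CPM (median 0.848) at 6 hours, and was 1.35, 1.26, 0.838 and 0.946 CPM at 24 hours. In SIRT1intKO livers *Pycard* ranged from 0.273 to 1.57 CPM (median 0.877) at 0 hours, was 0.834, 0.282, 0.252, 0.303 and 0.599 CPM at 6 hours, and ranged from 0.657 to 3.82 CPM (median 1.68) at 24 hours. Of the 7 SIRT1intKO livers at 24 hours, 6 were above every SIRT1intKO liver at 6 hours. At 6 against 0 hours the log2 change of *Pycard* in SIRT1intKO livers was −0.99 ± 0.42 (adjusted p = 0.0607), which passed with upper-quartile scaling (adjusted p = 0.0471) and without SIRT1intKO replicate 1 at 6 hours (−1.35, adjusted p = 0.0181) or replicate 3 at 0 hours (−1.17, adjusted p = 0.0231). Between 6 and 24 hours the log2 rise in SIRT1intKO livers was 1.98 ± 0.40 (adjusted p = 0.000579), and it passed with each library left out in turn. Against 0 hours it was 0.99 ± 0.35 (adjusted p = 0.0196), a call lost without SIRT1intKO replicate 2 at 24 hours, the liver at 3.82 CPM (0.72, adjusted p = 0.0779), without SIRT1intKO replicate 3 at 0 hours (0.81, adjusted p = 0.0558) and with the replicate block (adjusted p = 0.0517). The WT log2 change of *Pycard* was 0.30 ± 0.41 at 24 against 0 hours (adjusted p = 0.592). Between genotypes the log2 difference was −0.96 ± 0.42 at 6 hours (adjusted p = 0.761) and 0.72 ± 0.39 at 24 hours (adjusted p = 0.263).

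*Nlrp3*, the sensor, ranged in WT livers from 0.700 to 2.40 CPM (median 0.813) at 0 hours and from 0.196 to 0.700 CPM (median 0.394) at 6 hours, and was 0.984, 0.914, 0.314 and 0.249 CPM at 24 hours. In SIRT1intKO livers *Nlrp3* ranged from 0.341 to 1.01 CPM (median 0.627) at 0 hours, was 0.321, 0.352, 0.629, 0.668 and 0.240 CPM at 6 hours, and ranged from 0.422 to 4.39 CPM (median 1.17) at 24 hours. The highest liver was SIRT1intKO replicate 4 at 24 hours, and the next of its group had 2.06 CPM. Between 6 and 24 hours *Nlrp3* rose in SIRT1intKO livers by a log2 change of 1.78 ± 0.50 (adjusted p = 0.00855), which passed with each library left out in turn. The log2 rise against 0 hours, 1.17 ± 0.45 (adjusted p = 0.0299), was lost in 5 of 13 such fits, without replicate 4 at 24 hours (0.64, adjusted p = 0.192) or without replicate 2, 3, 4 or 5 at 0 hours, and also with genes of at least 1 count tested (adjusted p = 0.0536) and with only the groups compared (adjusted p = 0.0662). In WT livers the fall at 6 hours (log2 change −1.44 ± 0.49, adjusted p = 0.0203) was lost without WT replicate 2 at 0 hours (−1.05, adjusted p = 0.0966). The log2 difference between genotypes at 24 hours was 1.33 ± 0.52 (adjusted p = 0.113), and it was 2.42, adjusted p = 0.0223 without WT replicates 1 and 2. Without WT replicates 3 and 4 it was 0.65, adjusted p = 0.482, and without SIRT1intKO replicate 4, the highest liver, it was 0.80, adjusted p = 0.286.

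*Casp1*, the effector protease that matures interleukin-1β and interleukin-18, ranged in WT livers from 1.49 to 2.42 CPM (median 1.90) at 0 hours and from 0.837 to 2.26 CPM (median 1.44) at 6 hours, and was 1.17, 0.400, 1.57 and 0.946 CPM at 24 hours. In SIRT1intKO livers *Casp1* ranged from 1.51 to 3.29 CPM (median 2.17) at 0 hours, was 1.60, 0.634, 0.692, 1.15 and 0.839 CPM at 6 hours, and ranged from 0.704 to 3.82 CPM (median 1.81) at 24 hours. At 6 hours 4 of 5 SIRT1intKO livers were below every SIRT1intKO liver at 0 hours. The log2 change in SIRT1intKO livers was −1.22 ± 0.36 at 6 hours (adjusted p = 0.00746) and 0.95 ± 0.35 from 6 to 24 hours (adjusted p = 0.041), and the second of these calls was lost in 8 of the 12 fits that left out 1 library (adjusted p from 0.0513 to 0.111), with the replicate block (0.0705), with glmTreat (0.0844), with genes of at least 1 count tested (0.0859) and with only the groups compared (0.106). At 24 against 0 hours the log2 change of *Casp1* was −0.28 ± 0.31 (adjusted p = 0.472) in SIRT1intKO and −0.91 ± 0.38 (adjusted p = 0.0639 with edgeR and 0.0493 with DESeq2) in WT livers, where it passed with edgeR without replicate 3 (−1.18, adjusted p = 0.0269) and without replicates 3 and 4 (−1.28, adjusted p = 0.0369). The log2 difference between genotypes at 24 hours was 0.89 ± 0.37 (adjusted p = 0.138).

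*Casp4*, the sensor of the non-canonical inflammasome, ranged in WT livers from 1.32 to 7.30 CPM (median 1.64) at 0 hours and from 0.438 to 1.79 CPM (median 0.919) at 6 hours, and was 2.77, 1.31, 1.10 and 1.29 CPM at 24 hours. SIRT1intKO livers ranged from 0.329 to 1.86 CPM (median 1.39) at 0 hours, had 1.15, 1.197, 0.755, 1.58 and 1.14 CPM at 6 hours, and ranged from 0.798 to 5.21 CPM (median 2.14) at 24 hours. The one comparison of *Casp4* that passed with edgeR was the fall in WT livers at 6 hours (log2 change −1.34 ± 0.45, adjusted p = 0.0186), which was lost without WT replicate 2 at 0 hours, the liver at 7.30 CPM (−0.66, adjusted p = 0.2). At 24 against 0 hours in SIRT1intKO livers the log2 change was 0.94 ± 0.42 (adjusted p = 0.0633 with edgeR and 0.046 with DESeq2). At 24 against 6 hours it was 1.13 ± 0.46 (adjusted p = 0.062 with edgeR and 0.0374 with DESeq2).

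**Figure D3:**
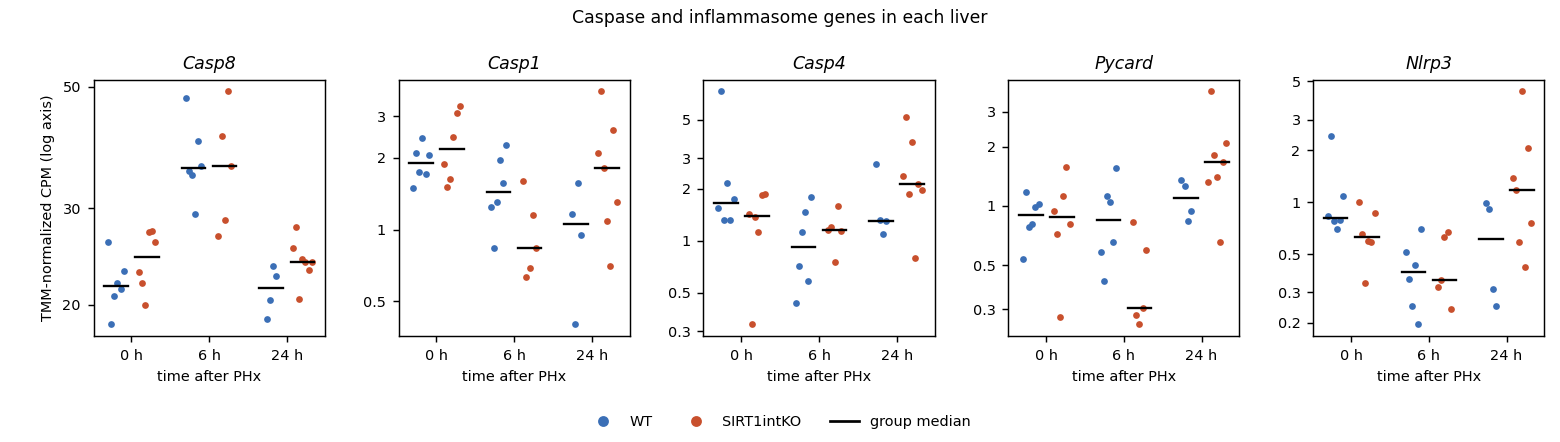
TMM-normalized CPM (log axis) of Casp8, Casp1, Casp4, Pycard and Nlrp3 in each of 34 livers, by time after PHx (0, 6 and 24 hours). Each point is a liver, WT in blue and SIRT1intKO in orange-red, and black lines are group medians; Casp8 is highest at 6 hours in both genotypes, and Pycard and Nlrp3 reach 3.82 and 4.39 CPM in SIRT1intKO livers at 24 hours.

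Marker lists of myeloid and other cells were measured in the same livers. The 8 monocyte and macrophage markers (*Ccr2*, *Ly6c2*, *Lyz2*, *Itgam*, *Adgre1*, *Cd68*, *Csf1r* and *Cx3cr1*) summed in SIRT1intKO livers to 60.6 to 132 CPM at 0 hours, 31.9 to 46.0 CPM at 6 hours and 54.5 to 233 CPM at 24 hours. In WT livers the sums were 57.5 to 95.7 CPM at 0 hours, 39.5 to 96.8 CPM at 6 hours and 46.7 to 77.0 CPM at 24 hours. Of these 8 markers, 5 were higher at 24 than at 6 hours in SIRT1intKO livers with none lower (13.2% of all genes were higher). At 24 hours 2 (*Lyz2* and *Ccr2*) were higher in SIRT1intKO than in WT livers (2.3% of all genes were). The call of *Ccr2* was lost without WT replicates 3 and 4 (1.18, adjusted p = 0.0744). The 8 neutrophil markers summed in SIRT1intKO livers to 4.27 to 21.3 CPM at 0 hours, where Ly6g was at 0 in every liver, 9.22 to 17.1 CPM at 6 hours and 23.4 to 959 CPM at 24 hours. Of the 7 neutrophil markers tested, 6 were higher in SIRT1intKO livers at 24 than at 6 hours (13.2% of all genes). At 24 hours 1 of them (*Csf3r*) was higher in SIRT1intKO than in WT livers (2.3% of all genes). In WT livers at 24 against 0 hours 4 of the 7 neutrophil markers were higher, and 3 of the 8 monocyte and macrophage markers were higher and 3 lower, while none of *Casp1*, *Casp4*, *Pycard* and *Nlrp3* passed there with edgeR (19.5% of all genes were higher). In SIRT1intKO livers at 24 against 0 hours 7 of the 7 neutrophil markers were higher, and 6 of the 8 monocyte and macrophage markers were higher and 1 lower (26.2% of all genes were higher), and *Pycard* and *Nlrp3* passed there. With edgeR 1 of all these markers, *Lyz2*, passed an interaction, for 24 against 6 hours (2.47 ± 0.50, adjusted p = 0.0297). DESeq2 called 2 monocyte and macrophage markers, 1 neutrophil marker and 2 of the Kupffer cell markers named next for that interaction. For the interaction at 24 against 0 hours DESeq2 called 1 marker of each of these 3 lists. The 5 Kupffer cell markers (*Clec4f*, *Vsig4*, *Timd4*, *Marco* and *Cd5l*) summed to 59.5 to 101 CPM at 6 hours and 75.4 to 273 CPM at 24 hours in SIRT1intKO livers, where 1 (*Marco*) was higher at 24 than at 6 hours and higher than in WT livers at 24 hours. Against 0 hours, at 101 to 222 CPM, *Marco* was higher and *Clec4f* lower in these livers at 24 hours. In WT livers the Kupffer sums were 60.4 to 162 CPM, 50.4 to 182 CPM and 18.2 to 93.8 CPM at 0, 6 and 24 hours. There *Timd4*, *Clec4f* and *Vsig4* were lower at 24 hours than at either earlier time (14.6% of all genes were lower than at 0 hours and 6.43% than at 6 hours). In WT livers at 24 hours the neutrophil sums were 120.4, 101, 14.2 and 7.91 CPM and the cholangiocyte sums (*Krt7*, *Krt19*, *Epcam*, *Sox9* and *Spp1*) 482, 264, 64.5 and 78.8 CPM in replicates 1 to 4, so the pairs seen for *Bcl2l1* and *Bcl2l11* also differed here. SIRT1intKO replicate 2 at 24 hours, with the neutrophil sum of 959 CPM, held the highest *Pycard*, *Casp1* and *Casp4* of the SIRT1intKO livers and the highest *Bid* of all livers. The liver highest in *Nlrp3*, replicate 4, had 117 CPM of monocyte and macrophage markers, and that highest in *Bcl2*, replicate 6, had 233 CPM. The 6 sinusoidal endothelium markers were *Stab2*, *Lyve1*, *Clec4g*, *Fcgr2b*, *Kdr* and *Oit3*. At 24 against 0 hours 5 were lower in WT livers (14.6% of all genes were). In SIRT1intKO livers 5 were lower (24% of all genes) and 1 higher. At 6 against 0 hours 4 were lower in SIRT1intKO livers (17.6% of all genes were). In WT livers 1 was higher and 1 lower at 6 hours (18.9% and 18.5% of all genes were). Of the 5 cholangiocyte markers 3 were higher and none lower at 24 against 0 hours in each genotype. Of all genes, 19.5% were higher in WT and 26.2% in SIRT1intKO livers. The part of these cells in the changes of the members was not tested.

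**Figure D4:**
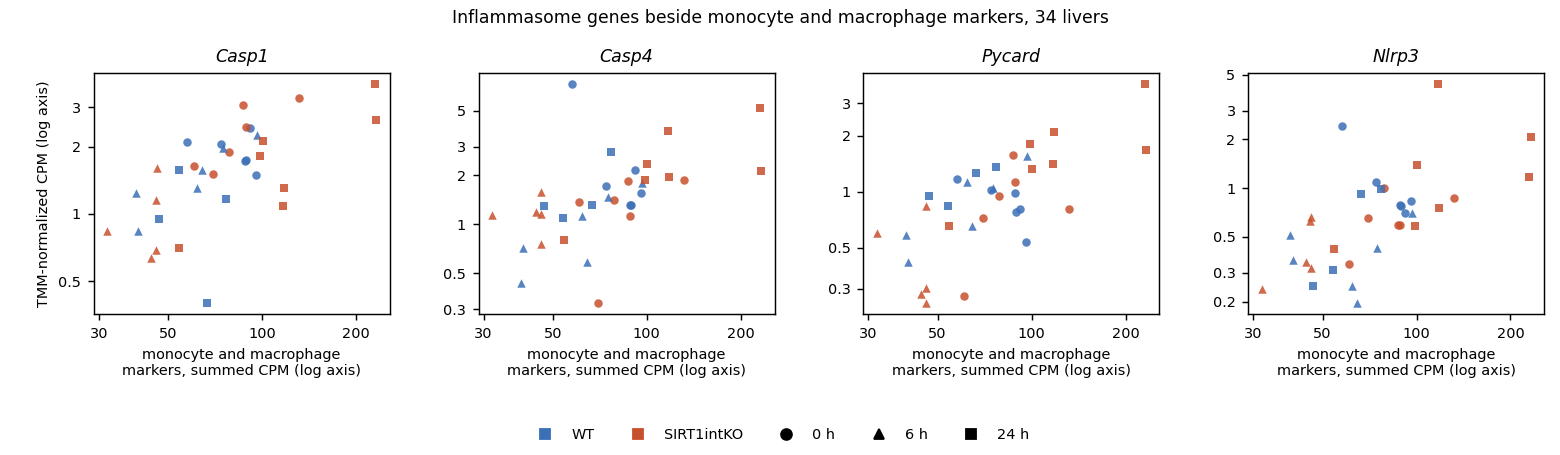
Level of Casp1, Casp4, Pycard and Nlrp3 in each of 34 livers (TMM-normalized CPM, log axis) against the summed CPM of 8 monocyte and macrophage markers (log axis); colours give the genotype and shapes the time after PHx. The SIRT1intKO livers at 6 hours sit at 31.9 to 46.0 CPM of markers, and those at 24 hours reach 233 CPM.

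Across all 34 livers, the genes whose log2 CPM followed each member most closely are given as a description, since the livers share the time course and the genotypes. They were *Aif1*, *Clec12a* and *Ly86* for *Casp1* (Pearson r 0.82, 0.82 and 0.80), *Clec4a2*, *Lsp1* and *Cd52* for *Pycard* (0.80, 0.78 and 0.76), *Syk*, *Lilrb4a* and *Fpr2* for *Nlrp3* (0.81, 0.79 and 0.78), and *Spic*, *Zfp429* and *Ccl3* for *Casp4* (0.80, 0.78 and 0.77). *Bcl2l1* was followed by *Slc16a6*, *Tfe3* and *Mast2* (0.91, 0.89 and 0.89), *Bid* by *Gsap*, *Pxdc1* and *Mettl27* (0.89, 0.89 and 0.86), and *Casp8* by *Lig3*, *Abcf3* and *Mgll* (0.89, 0.87 and 0.87). *Mcl1* was followed by *Zbtb2*, *Npepps* and *Kmt5a* (0.83, 0.82 and 0.81), *Bcl2l11* by *Ankrd28*, *Zkscan17* and *Traf6* (0.82, 0.81 and 0.80), and *Bcl2* by *Galk1*, *Nagk* and *Lrrc25* (0.73, 0.72 and 0.71). With the mean of each group removed, the 6 pairs of inflammasome members had r over the 34 livers of 0.61 for *Casp1* and *Pycard*, 0.53 for *Pycard* and *Casp4*, 0.52 for *Casp4* and *Nlrp3*, 0.51 for *Casp1* and *Casp4*, 0.24 for *Pycard* and *Nlrp3* and 0.09 for *Casp1* and *Nlrp3*. Of the other pairs of members, those beyond 0.5 in size were *Nlrp3* and *Mcl1* (0.66), *Bcl2l11* and *Bid* (0.54), *Bcl2l1* and *Mcl1* (0.52) and *Casp1* and *Bcl2l1* (−0.52).

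Whether the time courses differed between genotypes was asked with the interaction, the difference between SIRT1intKO and WT livers in their log2 change. For 24 against 0 hours 0 of 10 members passed with edgeR (0.00668% of all genes did), 3 (*Bcl2*, *Casp4* and *Nlrp3*) had an unadjusted p under 0.05 (12.7%), and DESeq2 called 1, *Bcl2*. The interaction of *Bcl2* was 1.90 ± 0.50 (95% interval 0.89 to 2.92; adjusted p = 0.122 with edgeR and 0.0209 with DESeq2), and that of *Nlrp3* was 2.02 ± 0.69 (adjusted p = 0.228). For 24 against 6 hours 0 of 10 passed with edgeR (0.581% of all genes), 6 had an unadjusted p under 0.05 (19.7%), and DESeq2 called 0. The interactions of these 6 were 1.10 ± 0.51 for *Bcl2*, −1.28 ± 0.49 for *Bcl2l1*, −0.62 ± 0.22 for *Mcl1*, −1.10 ± 0.50 for *Bcl2l11*, 1.52 ± 0.52 for *Casp1* and 1.68 ± 0.58 for *Pycard*, with edgeR adjusted p from 0.113 to 0.232. For 6 against 0 hours 0 of 10 passed with edgeR (0% of all genes), 1 member (*Mcl1*, 0.43 ± 0.21) had an unadjusted p under 0.05 (3.05%), and DESeq2 called 0. These shares belong to edgeR with all livers. The shares with DESeq2 and without the pairs of WT livers are not given, so calls from those fits have no background beside them. Without WT replicates 3 and 4, 4 members passed for 24 against 6 hours (*Bcl2l1* at −1.99, adjusted p = 0.00261, *Mcl1* at −0.92, adjusted p = 0.00575, *Bcl2l11* at −1.70, adjusted p = 0.0202 and *Casp1* at 1.89, adjusted p = 0.0352) and *Bcl2* passed for 24 against 0 hours (2.20, adjusted p = 0.0258), and without WT replicates 1 and 2 *Nlrp3* passed for 24 against 0 hours (3.11, adjusted p = 0.0273).

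**Figure D5:**
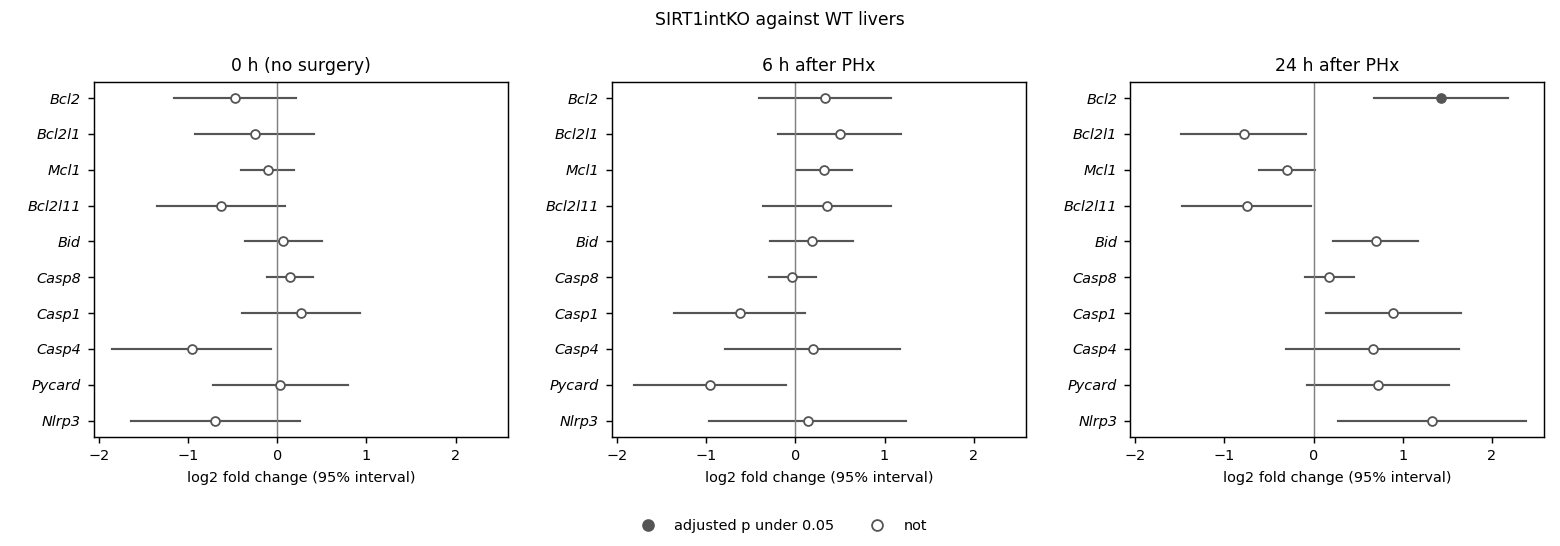
Log2 fold changes of SIRT1intKO against WT livers (points) with 95% intervals (bars) for the 10 members at each time. Filled points passed the edgeR test at an adjusted p under 0.05, and Bcl2 at 24 hours, at 1.43, is the filled point.

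Other genes of the same pathways were described by lists. At 6 against 0 hours 27 of the 63 genes tested passed in WT livers (37.4% of all genes did) and 24 in SIRT1intKO livers (38.4%). At 6 against 0 hours 5 of the 10 multidomain *Bcl2* family genes tested passed in each genotype, 3 higher and 2 lower. *Bcl2l14* was higher by 3.66 in WT and 3.60 in SIRT1intKO livers on the log2 scale, and *Bok*, an effector related to BAX and BAK, had log2 changes of −1.62 and −1.91. Of 7 BH3-only genes 4 passed in WT (1 higher, 3 lower) and 3 in SIRT1intKO livers (all lower), led by *Bbc3* (PUMA) with −2.04 and −1.96 and by *Bmf* with −0.99 and −1.02. Of 12 genes of death receptors and necroptosis 3 passed in WT and 4 in SIRT1intKO livers, and *Tnfrsf1a*, the TNF receptor upstream of caspase-8, was higher by 1.32 and 1.68. Of 12 apoptosome and executioner genes 5 passed in each genotype, among them *Casp9* with −1.09 and −0.68. Of 11 inflammasome sensors and adaptors tested 4 passed in each genotype (3 higher and 1 lower in WT, 2 and 2 in SIRT1intKO livers), with *Nlrp6* at −1.70 and −1.63 and *Nlrp12* at 1.62 and 0.95. Of 11 inflammasome substrates and regulators 6 passed in WT (2 higher, 4 lower) and 3 in SIRT1intKO livers (1 higher, 2 lower), and *Il1rn*, the interleukin-1 receptor antagonist, was higher by 2.18 and 3.50.

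At 24 against 0 hours 18 of the 63 pathway genes tested passed in WT livers (11 higher and 7 lower, 34.1% of all genes) and 40 in SIRT1intKO livers (26 higher and 14 lower, 50.2%). The BH3-only genes gave 1 higher and 4 lower in SIRT1intKO livers and 2 lower in WT livers, with *Bbc3* at −0.81 and −0.91. The inflammasome sensors and adaptors gave 3 higher and 4 lower in SIRT1intKO livers and 1 lower in WT livers, with *Nlrp6* at −2.52 and −1.31. The multidomain genes gave 6 higher and none lower in SIRT1intKO livers and 3 higher and 1 lower in WT livers, with *Bak1*, a pore-forming effector, higher by 0.66 and 0.87. The apoptosome and executioner list gave 6 higher and 3 lower in SIRT1intKO livers and 2 higher in WT livers, and *Apaf1*, the apoptosome scaffold, was higher by 1.57 and 1.34. Of the death receptor and necroptosis genes 5 were higher and 2 lower in SIRT1intKO and 4 higher and 1 lower in WT livers. Among them *Tnfrsf10b*, the mouse TRAIL receptor, was higher by 3.06 and 3.48, and *Mlkl*, the executor of necroptosis, by 2.10 and 1.25. The inflammasome substrates and regulators gave 5 higher and 1 lower in SIRT1intKO livers and 2 higher and 2 lower in WT livers. *Il1rn* was higher by 6.08 in SIRT1intKO and 5.12 in WT livers, and *Il1b* passed in SIRT1intKO livers (1.70 ± 0.66, adjusted p = 0.0318). At 24 against 6 hours *Il1b* was higher by 2.66 ± 0.75 in SIRT1intKO livers (adjusted p = 0.00864), where 6 of the 11 substrates and regulators were higher and none lower (27.6% of all genes passed in either direction).

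Between genotypes at 24 hours, 8 of the 63 pathway genes tested passed, 6 higher and 2 lower in SIRT1intKO livers, where 5.81% of all genes passed (2.3% higher and 3.51% lower). *Il1a*, an interleukin-1 cytokine, was 0.343 to 1.14 CPM in WT and 1.45 to 6.97 CPM in SIRT1intKO livers, with no overlap (1.97% of all genes tested), and its log2 difference was 1.91 ± 0.41 (adjusted p = 0.00885). *Gbp2*, an interferon-induced GTPase, was higher by 1.87 ± 0.46 (adjusted p = 0.0191), and *Birc3* (cIAP2), which ubiquitinates RIPK1, by 1.38 ± 0.43 (adjusted p = 0.0489). *Bcl2a1b*, an anti-apoptotic gene, was higher by 3.11 ± 0.72 (adjusted p = 0.0138), although reads of the near-identical Bcl2a1 copies may be split uncertainly between them. *Bmf*, a BH3-only gene, had a log2 difference of −1.65 ± 0.39 (adjusted p = 0.0147) and reached 13.2 CPM in 1 WT liver against a WT median of 3.64 CPM. *Nlrp6*, an inflammasome sensor best known from epithelium, had −1.23 ± 0.37 (adjusted p = 0.0433). Without WT replicates 1 and 2, 9 of the 63 genes passed, 8 higher and 1 lower. Without WT replicates 3 and 4, 13 passed, 7 higher and 6 lower. Both counts include genes that did not pass with all livers, and the shares of all genes that passed in these fits are not given. *Il1a*, *Gbp2* and *Bcl2a1b* passed also without WT replicates 1 and 2 and without WT replicates 3 and 4. Without replicates 1 and 2 the call of *Bmf* was lost (−0.15, adjusted p = 0.82). Without replicates 3 and 4 those of *Birc3* (0.86, adjusted p = 0.262) and *Nlrp6* (0.04, adjusted p = 0.957) were lost, and *Nlrp6* turned in sign. *Gbp5* and *Bcl2a1a*, whose means were under 1 CPM and which are named after their values were seen, were the other two, and both calls were lost without WT replicates 1 and 2 (2.10, adjusted p = 0.14 and 2.58, adjusted p = 0.101). At 0 and at 6 hours 0 of these 63 genes passed between genotypes with edgeR, with 1 and 2 at an unadjusted p under 0.05 and 0 called by DESeq2 at either time.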

How the data were processed

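Whole-liver RNA of 34 mice was sequenced, and the authors deposited 1 table of expected counts, that is counts per gene estimated by Salmon after alignment with STAR to GRCm39, as named in the submitters' processing notes; versions are not given in the sources used here. Of its 35 columns, 34 matched a library name in the labels and 1 was not used. Since 4.975% of the deposited estimated counts were not exactly whole (no tolerance), they were rounded. The letter x was missing from the deposited gene symbols; 1316 symbols were restored by gene identifier, and no member was among them. Genes were kept by edgeR's filterByExpr with its minimum count of 10. One quasi-likelihood fit over the 6 groups (edgeR 4.0.16 in R 4.3.3, TMM scaling) tested 12 comparisons, with Benjamini-Hochberg adjustment over 14980 genes. The study's own threshold adds a log2 fold change beyond 1, and was applied here to edgeR's values without the study's shrinkage step. Its tool, DESeq2 (1.42.0), was run as an alternative with the others named in the closing section. The members and the lists of pathway and marker genes were chosen with earlier results of these data known, and some members were named by the study from these libraries, so their counts are not independent evidence of direction. Named were all members, at most the 3 genes with the largest log2 fold change among those that passed in a list with a mean of at least 1 CPM, and for each member the 3 genes with the highest Pearson r. The labels call the livers biological replicates, and the tests set each difference against the spread between livers. That spread was estimated over the 6 groups together, so a group with a wider spread than the others is not judged by its own spread alone. No 2 libraries of the same group agreed within counting noise (82 pairs compared). Motifs were searched in RefSeq start-site windows (GRCm38.p6), a build that is not the one of the counts.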

Additional observations from a re-analysis of the deposited data

Results flagged for a closer look

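A single liver stood far from the other livers of its group in 4 of the 60 combinations of member and group tested by Dixon's criterion, which by chance flags about 1 in 20. WT replicate 2 at 0 hours accounted for 3 of them. Its level of *Mcl1* was 151.39 CPM, and the next WT liver had 109 CPM. Its level of *Casp4* was 7.30 CPM, and the next had 2.15 CPM. Its level of *Nlrp3* was 2.40 CPM, and the next had 1.09 CPM. The same liver had 57.5 CPM of summed monocyte and macrophage markers, the lowest of the WT livers at 0 hours, and their part in these levels was not tested. The remaining one was the low *Casp4* of SIRT1intKO replicate 2 at 0 hours, 0.329 CPM, where the next had 1.13 CPM. No member passed edgeR's test of a difference in time course between genotypes. Of all genes, 0.581% passed for 24 against 6 hours, 0.00668% for 24 against 0 hours and 0% for 6 against 0 hours. For 24 against 6 hours, 6 members had an unadjusted p under 0.05, as did 19.7% of all genes. DESeq2 called 1 member, *Bcl2*, for 24 against 0 hours.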

How the results depend on the processing

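The number of members that passed was recomputed under each alternative. The share of all genes that passed is given above for the main fit and the study's threshold only. Counts from the other fits, with pairs or single livers left out or with DESeq2, thus have no background beside them. They show how the calls depend on the fit and are not read as a result about the members. With the study's fold threshold it was 2 in place of 5 for WT livers at 6 against 0 hours, 3 in place of 5 for SIRT1intKO livers at 6 against 0 hours and 1 in place of 4 for WT livers at 24 against 6 hours. With at least 10 counts required in every library only 5 members were tested, which gave 3 and 3 for WT livers at 6 and SIRT1intKO livers at 24 against 0 hours, 2 for SIRT1intKO livers at 24 against 6 hours and 0 between genotypes at 24 hours. With only the groups compared in the fit the genotypes at 24 hours gave 0 (*Bcl2*, adjusted p = 0.257) and WT livers at 24 against 6 hours gave 2. With glmTreat it was 0 between genotypes at 24 hours (*Bcl2*, adjusted p = 0.0604). With DESeq2 it was 2 there (*Bcl2* and *Bid*) and 1 for the interaction at 24 against 0 hours. Scaling by RLE or upper quartiles, and testing genes with at least 1 count, changed none of the counts by more than 1.5 times.

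Alternatives chosen after seeing the data removed pairs of WT livers at 24 hours. Without replicates 1 and 2, the count was 0 for WT livers at 24 against 0 hours, 2 for WT livers at 24 against 6 hours, 2 between genotypes (*Bid* and *Nlrp3*) and 1 for the interaction at 24 against 0 hours (*Nlrp3*), and *Bcl2l1* in WT livers at 24 against 6 hours turned from 1.21 to −0.19, adjusted p = 0.802. Without replicates 3 and 4, it was 4 for WT livers at 24 against 0 hours, 4 between genotypes (*Bcl2*, *Bcl2l1*, *Mcl1* and *Bcl2l11*), 1 for the interaction at 24 against 0 hours (*Bcl2*) and 4 for that at 24 against 6 hours.

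With each library left out in turn the count ranged from 3 to 6 for WT livers at 6 against 0 hours, from 1 to 3 at 24 against 0 hours and from 2 to 4 at 24 against 6 hours. It ranged from 0 to 4 between genotypes at 24 hours, from 0 to 1 for the interaction at 24 against 0 hours and from 0 to 2 for that at 24 against 6 hours. Without SIRT1intKO replicate 5 at 24 hours *Bid* (0.80, adjusted p = 0.0166), *Casp1* (1.04, adjusted p = 0.05 after rounding up) and *Nlrp3* (1.49, adjusted p = 0.0466) also passed between genotypes, as did *Casp4* at 24 against 0 (1.10, adjusted p = 0.0271) and 6 hours (1.28, adjusted p = 0.0274) and the interactions of *Bcl2* at 24 against 0 (2.00, adjusted p = 0.0295) and of *Casp1* (1.66, adjusted p = 0.0461) and *Pycard* (1.83, adjusted p = 0.0498) at 24 against 6 hours. Without WT replicate 1 at 24 hours *Bid* passed between genotypes (0.96, adjusted p = 0.0141). Same-numbered libraries did not deviate together (r above 0.1 in 6 of 76 pairs, median r −0.00364), so the numbers do not pair the livers; with the replicate block the count was 1 for WT livers at 24 against 0 hours and 0 between genotypes at 24 hours (*Bcl2*, 1.35, adjusted p = 0.0755), and stayed within 1.5 times elsewhere. The cause of these shifts was not tested. *Bcl2*, *Casp1*, *Casp4*, *Pycard* and *Nlrp3* had under 10 counts in some libraries, and the effect of depth was not tested.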
